A study of Mus musculus with 8 samples.

Results

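The genes described here were almost silent in non-irradiated MC38 cells and clearly expressed after irradiation. They were chosen by their counts per 1000000 total counts (CPM): under 0.5 CPM in all 4 non-irradiated libraries and at least 2 CPM in all 4 irradiated ones, with C3 and genes of 14 symbol prefixes (interferon, guanylate-binding, chemokine, collagen and histocompatibility genes and Irg, the interferon-induced GTPases, among them) left out. Of 29079 genes in the table, 21 met both levels and 14 remained. These were Spib, Cd74, Gm12250, Phf11a, Cd36, Clca2, Dkk3, Crispld2, Slco1a5, Gipc2, Camsap3, Cbs, Hsd17b1 and the non-coding Gm567. The irradiation difference is what chose them, so the change with irradiation is given below as values with no test. The rule put the same limits on both lines, so the difference between the lines after irradiation was tested.

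MC38 is a mouse colon adenocarcinoma line, which the labels call epithelial. Cells that received 1 guide RNA directed at Piezo2, a mechanically gated ion channel (KO), and CRISPR control cells (WT) were each sampled 60 hours after a single 30 Gy X-ray dose and without irradiation, with 2 libraries per group, so the controls also went through editing. The labels do not say whether the KO line is a clone or a pool, nor whether the 2 libraries of a group came from separate cultures. The p-values then measure only how far these libraries differ from each other, and that spread may be technical. Total counts ran from 10971004 to 19887180 per library. At these depths 0.5 CPM was 5.49 to 9.94 reads and 2 CPM was 21.9 to 39.8 reads, and a count of 0 allows up to 3 reads, or 0.151 to 0.273 CPM. The cells showed little of an intestinal program: of 14 intestinal epithelium markers in the table, Cdh1 had 526 to 1365 reads per library, while Krt18 had at most 2 and Vil1 at most 9. Piezo2 itself had 7 and 12 reads in irradiated KO, 3 and 9 in irradiated WT and, without irradiation, 0 and 1 in KO and 0 and 0 in WT, which does not check the edit.

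Ionizing radiation breaks DNA, and cells that survive a high dose can release DNA or RNA into the cytosol, where sensors start an interferon response. Interferon in turn induces antiviral proteins, GTPases and the antigen presentation machinery in most cell types. Of the 14 genes, 3 (Cd74, Gm12250 and Phf11a) are on a list of 90 interferon-stimulated genes outside the excluded symbol prefixes. Spib is a lineage transcription factor, and the other 10 encode surface, secreted, cytoskeletal and metabolic proteins and a long non-coding RNA. In GENCODE M21, 12 are protein coding, Gm567 is a lincRNA and Gm12250 is listed as a processed pseudogene, whereas RefSeq lists Gm12250 as protein coding with the synonym Irgb10. By that synonym it would fall under the Irg prefix, and it was kept because the rule reads the GENCODE symbol.

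Together the 14 genes had 3328 and 3661 reads in the irradiated KO libraries and 1760 and 2091 in the irradiated WT libraries, and, without irradiation, 37 and 55 in KO and 41 and 47 in WT. Of the 56 values in non-irradiated libraries 4 were 0 reads, and the most that any gene reached there was 9 reads. The fewest reads in an irradiated library were 28, for Camsap3. The pooled ratio of irradiated to non-irradiated CPM ranged from 5.40-fold (Slco1a5) to 1355-fold (Gm12250) in KO and from 8.34-fold (Camsap3) to 224-fold (Spib) in WT, with medians of 25.8 and 33.0. Spib and Gm12250 alone took 65.2 and 64.5 percent of the summed CPM of the 14 in irradiated KO and 49.9 and 48.2 percent in irradiated WT. The 14 genes lay on 9 chromosomes, and none lay near another: the closest pair, Clca2 and Gipc2 on chromosome 3, were 6994090 bases apart.

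**Figure D1:**
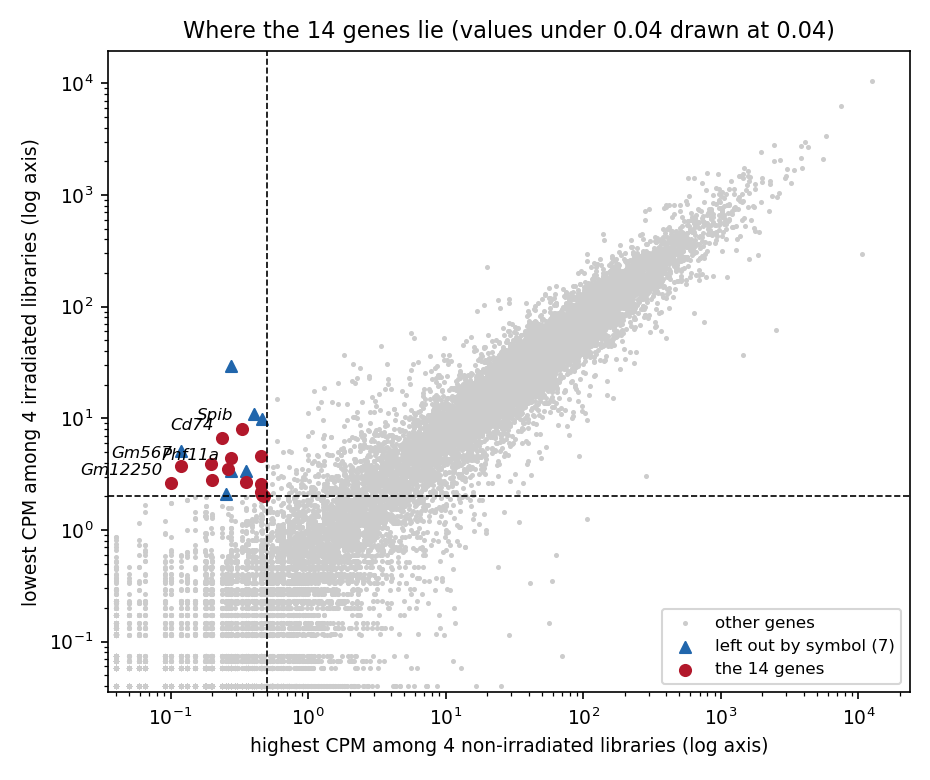
Each gene of the table by its highest CPM in the 4 non-irradiated libraries (x, log axis) and its lowest CPM in the 4 irradiated libraries (y, log axis). Dashed lines mark 0.5 and 2 CPM, and the 14 genes (circles) and the 7 left out by symbol (triangles) occupy a sparsely filled corner, with Slco1a5 and Camsap3 on its edge.

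The lines of the rule pass close to some genes. Slco1a5, at 2.02 CPM in its lowest irradiated and 0.474 CPM in its highest non-irradiated library, was nearest to both lines, followed by Camsap3 at 2.07 and 0.460 CPM. Hsd17b1 and Gipc2 were inside by little as well, at 2.19 and 2.59 CPM in their lowest irradiated library and 0.453 CPM in their highest non-irradiated one. Dkk3 was near the lower line at 0.456 CPM, and Gm12250 near the upper one at 2.61 CPM. Just outside at 2 CPM were Myo15 (1.99 CPM), Wfdc3 and Pax5 (both 1.97 CPM), Lama2 (1.96 CPM) and Gm15433 (1.92 CPM), and just outside at 0.5 CPM were Vsir (0.503 CPM), Bank1 (0.547 CPM) and Cmbl, Fam19a2 and Rhbdl2 (0.553 CPM each).

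How far did the 2 lines differ in switching these genes on? Applied to KO alone the rule gave 85 genes and to WT alone 88, and the 14 shared genes were 16.5 percent of the KO list and 15.9 percent of the WT list. Of the 71 genes of the KO list only, 59 stayed under 2 CPM in an irradiated WT library, 15 reached 0.5 CPM in a non-irradiated WT library, and 3 did both. Of the 74 genes of the WT list only, 45 stayed under 2 CPM in an irradiated KO library, 35 reached 0.5 CPM in non-irradiated KO, and 6 did both. The difference between the lists was not tested.

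**Figure D2:**
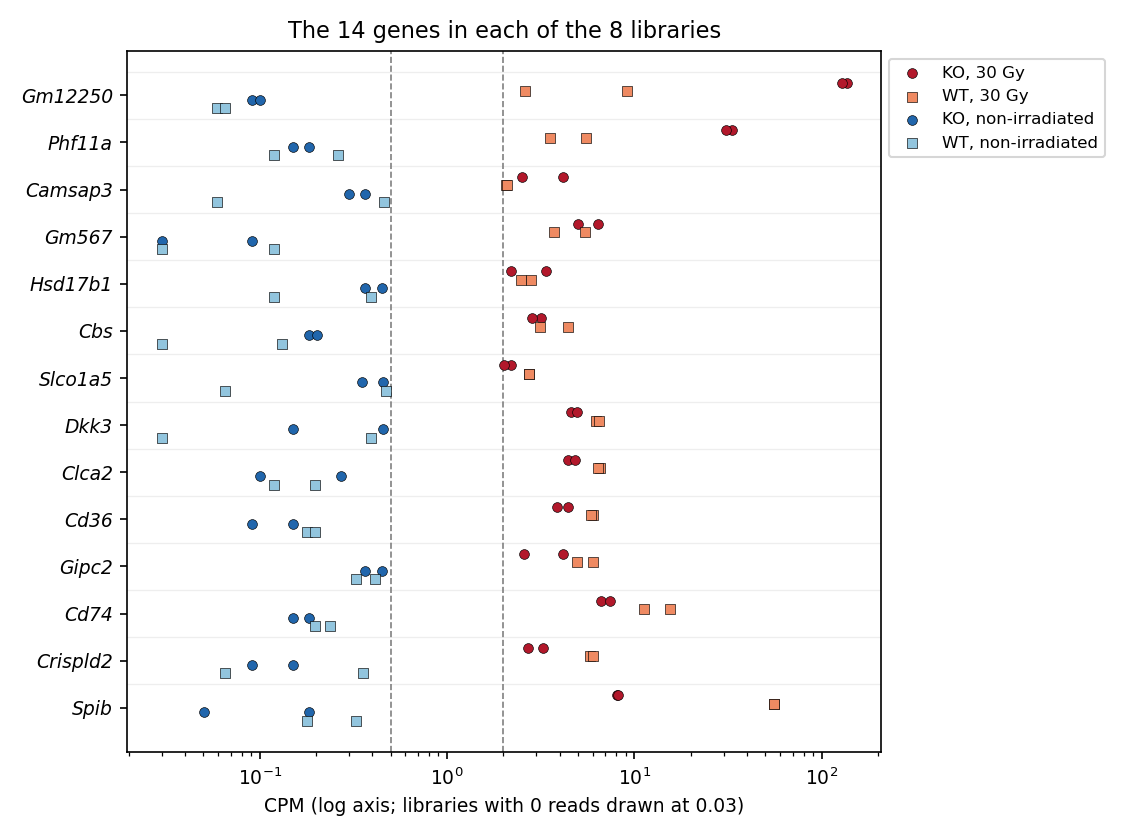
CPM of the 14 genes (rows, ordered by their change in KO over WT after irradiation) on a log axis, 1 point per library, with libraries of 0 reads drawn at 0.03 and dashed lines at 0.5 and 2 CPM. Gm12250 and Phf11a lie far to the right in irradiated KO and Spib in irradiated WT. The irradiated lines lie closer together for the others. Several of those still do not overlap, such as Cd74 and Crispld2 (lower in KO) and Camsap3 (higher in KO).

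Among irradiated libraries, KO and WT differed strongly in 3 of the 14 genes and moderately in 1. Gm12250 and Phf11a were higher in KO, and Spib and Cd74 were lower. These 4 passed the edgeR quasi-likelihood test (adjusted p under 0.05, Benjamini-Hochberg over 14923 tested genes), 2 in each direction, where 24.6 percent of all tested genes were called, 13.3 percent as higher and 11.4 percent as lower. With the replicate number as a block Crispld2 and Gipc2 passed as well, both lower in KO (2 higher and 4 lower), while calls over all genes were 3761 higher and 3755 lower, against 1980 and 1698 without the block. All 14 entered the test, but each did so through its irradiated libraries alone, and the rule kept out genes that either line expressed under 2 CPM. In 11 of the 14 the irradiated libraries of the lines did not overlap in CPM, 8 lower and 3 higher in KO. The same held for 62.3 percent of all tested genes, 32 percent lower and 30.3 percent higher. The fitted change was below 0 in 9 of 14 genes, with a median of -0.38 on the log2 scale, against 51.3 percent and a median of -0.01 for all tested genes.

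**Figure D3:**
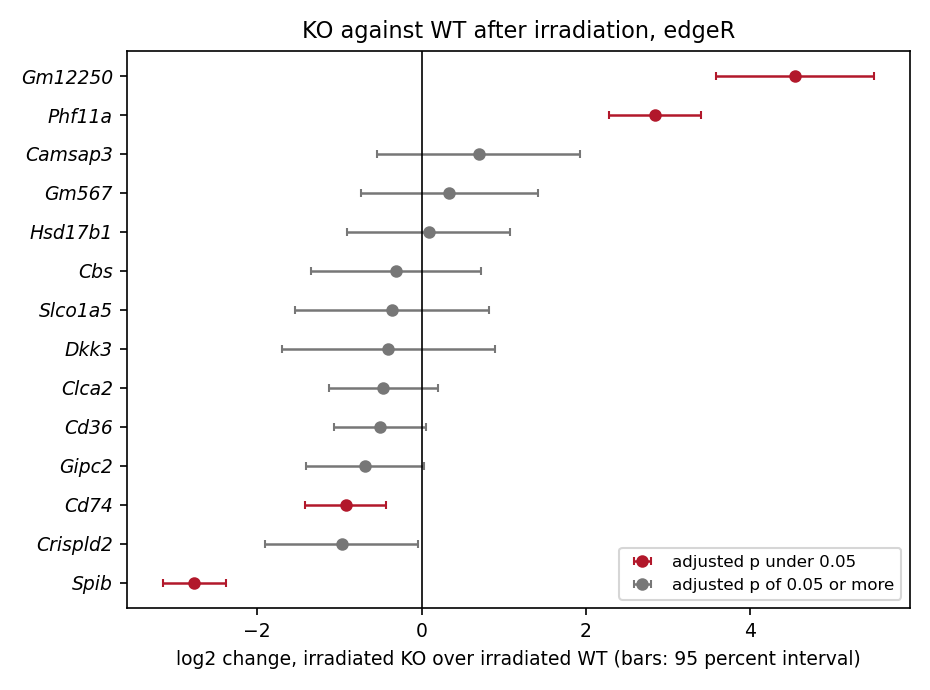
Fitted log2 change in irradiated KO over irradiated WT for each of the 14 genes (x), with 95 percent intervals from the edgeR fit as bars, 2 libraries per line. The 4 genes with an adjusted p under 0.05 are Gm12250 at 4.55, Phf11a at 2.84, Cd74 at -0.93 and Spib at -2.77.

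Spib (ENSMUSG00000008193, mm10 chromosome 7, 44525993 to 44532071, minus strand) encodes Spi-B, an ETS-family transcription factor of B cells, plasmacytoid dendritic cells and the antigen-sampling M cells of the gut. It had 8.09 and 8.14 CPM in irradiated KO, 55.6 and 55.9 CPM in irradiated WT, 0.182 and 0.0503 CPM in non-irradiated KO and 0.178 and 0.328 CPM in non-irradiated WT. Both irradiated lines expressed it, the irradiated replicates were nearly equal, and every irradiated WT library was above every irradiated KO library. The KO level was 0.146-fold that of WT (log2 -2.77 ± 0.16 SE, edgeR adjusted p = 3.53e-05). Irradiated over non-irradiated CPM was 83.5-fold in KO (95 percent exact interval 28.3 to 407) and 224-fold in WT (113 to 519), and these intervals cover counting error only. Tested genes of chromosome 7, which also holds Dkk3, had a median log2 change in KO over WT of 0.38 after irradiation and 0.37 without it. This is the opposite direction to Spib.

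Cd74 (ENSMUSG00000024610, chromosome 18, 60803848 to 60812652, plus strand) encodes the invariant chain, which occupies and escorts MHC class II molecules. It had 6.63 and 7.39 CPM in irradiated KO, 11.3 and 15.6 CPM in irradiated WT, 0.182 and 0.151 CPM in non-irradiated KO and 0.237 and 0.197 CPM in non-irradiated WT. The lower WT library was above both KO libraries. The change was -0.93 ± 0.21 (edgeR adjusted p = 0.0167), and the call was lost with DESeq2 (adjusted p = 0.0572), without irradiated WT replicate 2 (0.138) and without irradiated KO replicate 1 (0.11) or 2 (0.0692). Its chromosome had a median of 0.40 in the same comparison, again opposite in sign, and of 0.38 without irradiation. Genes of the class II pathway, chosen after their values were seen, differed in level. The transactivator gene Ciita was at 1.06 and 0.866 CPM in irradiated KO and 0.369 and 0.581 CPM in irradiated WT, H2-Ab1 was at 0.332 and 0.289 CPM against 0.959 and 1.05 CPM, and H2-Aa and H2-Eb1 had at most 6 reads in any library. The peptide-loading genes H2-DMa and H2-DMb1 were expressed in all 8 libraries: H2-DMa had 8.09 and 6.29 CPM in irradiated KO and 6.86 and 5.81 CPM in irradiated WT, and H2-DMb1 had 44.3 and 41.7 CPM in irradiated KO and 32.7 and 28.8 CPM in irradiated WT, higher in KO (log2 0.50 ± 0.10, edgeR adjusted p = 0.0114).

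Gm12250 (ENSMUSG00000082292, chromosome 11, 58187739 to 58189012, plus strand), known as Irgb10, belongs to the interferon-induced GTPases that attack the membranes of intracellular microbes in mice. It had 136 and 128 CPM in irradiated KO, 9.15 and 2.61 CPM in irradiated WT, 0.0911 and 0.101 CPM in non-irradiated KO and 0.0593 and 0.0657 CPM in non-irradiated WT. Every irradiated KO library was far above both irradiated WT libraries, and the WT libraries differed 3.50-fold from each other. The change was 4.55 ± 0.41 (edgeR adjusted p = 0.000265), a 24.0-fold ratio of pooled CPM.

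Phf11a (ENSMUSG00000044703, chromosome 14, 59276913 to 59297522, minus strand) encodes a PHD finger protein. It had 33.2 and 30.8 CPM in irradiated KO, 5.53 and 3.54 CPM in irradiated WT, 0.182 and 0.151 CPM in non-irradiated KO and 0.119 and 0.263 CPM in non-irradiated WT, so the irradiated lines did not overlap. The change was 2.84 ± 0.24 (edgeR adjusted p = 0.000185). Its relatives Phf11b, Phf11c and Phf11d, named after their values were seen, were higher in KO as well, with log2 changes of 3.36 ± 0.31, 1.54 ± 0.19 and 3.23 ± 0.22 and adjusted p of 0.000291, 0.00121 and 7.24e-05 in edgeR. Reads of such similar copies may have been split between them. None of the 3 met the rule. Phf11b had 2.46 and 1.11 CPM in non-irradiated KO and 0.474 and 0.723 CPM in non-irradiated WT. Phf11c had 5.01 and 3.82 CPM in non-irradiated KO and 5.52 and 5.58 CPM in non-irradiated WT, and Phf11d had 5.47 and 3.17 CPM in non-irradiated KO and 1.90 and 1.58 CPM in non-irradiated WT.

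The interferon-stimulated list holds only genes outside the excluded symbol prefixes. Of its 78 tested genes, edgeR called 71 as higher and 2 as lower in irradiated KO than in irradiated WT. Of all tested genes 13.3 percent were called as higher and 11.4 percent as lower. The list had a median log2 change of 2.13. Gm12250 and Phf11a lay above that median. Cd74 was 1 of the 2 called as lower. The other was Ubd, a ubiquitin-like protein, at 2.52 and 1.73 CPM in irradiated KO and 8.41 and 6.68 CPM in irradiated WT (log2 -1.81 ± 0.38, edgeR adjusted p = 0.0117). In irradiated WT 60 of the 78 were higher in replicate 1 than in replicate 2, with a median log2 difference of 0.21 against 0.01 for all tested genes. In irradiated KO 46 of 78 were, with a median of 0.03. The part of this replicate difference in the 3.50-fold spread of Gm12250 in WT was not tested.

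The promoters of the 2 genes that were higher in KO are shown with that of Spib, which was lower, because these 3 had the strongest differences between the lines. Each is 300 bases, 250 before and 50 after the RefSeq start on GRCm38.p6 (mm10), from RefSeq, with capitals marking 2 interferon-related motifs searched on both strands. These are the interferon-stimulated response element, searched as GAAA, 2 bases of any kind and GAAA, and the STAT-binding GAS element, searched as TTC, 3 bases of any kind and GAA, and the marked matches do not overlap.
Gm12250, chr11:58183593-58183892, plus strand: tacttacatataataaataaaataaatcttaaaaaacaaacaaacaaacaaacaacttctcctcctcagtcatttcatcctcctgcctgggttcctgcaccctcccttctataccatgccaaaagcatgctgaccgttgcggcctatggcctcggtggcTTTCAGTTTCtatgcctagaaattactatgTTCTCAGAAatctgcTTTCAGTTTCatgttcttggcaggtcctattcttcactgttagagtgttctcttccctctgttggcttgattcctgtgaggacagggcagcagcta
Phf11a, chr14:59297473-59297772, minus strand: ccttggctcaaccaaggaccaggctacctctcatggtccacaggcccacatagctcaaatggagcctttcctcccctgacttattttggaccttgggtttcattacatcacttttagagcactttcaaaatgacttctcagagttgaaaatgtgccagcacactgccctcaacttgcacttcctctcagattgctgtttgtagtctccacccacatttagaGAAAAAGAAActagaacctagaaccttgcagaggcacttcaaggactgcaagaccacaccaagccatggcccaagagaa
Spib, chr7:44532022-44532321, minus strand: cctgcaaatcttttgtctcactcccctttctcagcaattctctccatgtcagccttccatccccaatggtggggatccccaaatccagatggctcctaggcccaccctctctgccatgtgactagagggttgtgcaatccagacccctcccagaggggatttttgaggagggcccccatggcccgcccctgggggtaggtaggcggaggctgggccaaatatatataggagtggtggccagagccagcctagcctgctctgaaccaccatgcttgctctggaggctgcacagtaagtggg
Gm12250 had 2 matches to the response element, both on the opposite strand, and 1 to the GAS element. Phf11a had 1 to the response element, and neither motif was in the Spib window. The Gm12250 window starts from the RefSeq gene, whose start lies 3896 bases from the GENCODE one. A window was found for 9 of the 14 genes. The response element was in 2 of them, these 2, against 3.44 percent of all 32851 windows in the table. The GAS element was in 2 of 9 windows, those of Gm12250 and Clca2, against 8.30 percent.  A match describes these letters only.

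Surface and secreted proteins made up 5 of the 14, and none of the 5 passed the test between the lines in the fit of all 8 libraries without the replicate block. Cd36, a scavenger receptor and fatty acid transporter of macrophages, adipocytes and endothelium, had 4.44 and 3.87 CPM in irradiated KO and 6.05 and 5.87 CPM in irradiated WT, with at most 3 reads in each non-irradiated library. Clca2, a regulator of calcium-activated chloride currents, had 4.44 and 4.85 CPM in irradiated KO and 6.57 and 6.39 CPM in irradiated WT, with at most 3 reads without irradiation. Dkk3, a secreted glycoprotein of the dickkopf family, had 4.58 and 4.96 CPM in irradiated KO and 6.27 and 6.51 CPM in irradiated WT. In these 3 genes each irradiated KO library was below both irradiated WT libraries. The fitted log2 changes were -0.51 (95 percent interval -1.07 to 0.06) for Cd36, -0.46 (-1.13 to 0.20) for Clca2 and -0.41 (-1.70 to 0.89) for Dkk3, intervals that reach from above 0 to below -1, a 2-fold lower level in KO.

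Crispld2, a secreted cysteine-rich protein, had 3.25 and 2.71 CPM in irradiated KO and 5.83 and 5.98 CPM in irradiated WT. It was the nearest to a call among the remaining genes (log2 -0.97 ± 0.40, 95 percent interval -1.90 to -0.04, edgeR adjusted p = 0.12), and 4 of 13 alternative fits called it, among them the replicate block (adjusted p = 0.00236). Slco1a5, an organic anion transporter, had 2.19 and 2.02 CPM in irradiated KO and 2.73 and 2.73 CPM in irradiated WT (log2 -0.36, interval -1.54 to 0.81). Its ratio of irradiated to non-irradiated CPM was the smallest of the 14 in KO, 5.40-fold, and was 9.73-fold in WT.

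Gipc2, a PDZ-domain adaptor, and Camsap3, which holds the minus ends of non-centrosomal microtubules in epithelial cells, stood on opposite sides. Gipc2 had 2.59 and 4.16 CPM in irradiated KO and 6.05 and 4.94 CPM in irradiated WT (log2 -0.68, interval -1.40 to 0.03, with an edgeR adjusted p of 0.0306 under the replicate block). Camsap3 had 2.52 and 4.16 CPM in irradiated KO and 2.07 and 2.09 CPM in irradiated WT (log2 0.70, interval -0.54 to 1.93). Neither was called without the block, and in both the irradiated KO replicates differed more than the WT ones. Both overlap genes on the other strand, and no strand setting was given in the sources used here: 9.32 percent of the Camsap3 exon bases are shared with Xab2, which had up to 1280 reads in a library, and 15.2 percent of those of Gipc2 with D630002J18Rik, which had at most 6. The relatives Camsap1 and Camsap2 were expressed throughout, at 66.6 to 119 CPM in every library, as was Gipc1 at 87.4 to 115 CPM.

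The metabolic enzymes were Cbs and Hsd17b1. Cbs, cystathionine beta-synthase, which starts the conversion of homocysteine to cysteine, had 3.18 and 2.83 CPM in irradiated KO, 4.43 and 3.14 CPM in irradiated WT, 0.182 and 0.201 CPM in non-irradiated KO and 0 and 0.131 CPM in non-irradiated WT. The irradiated lines overlapped (log2 -0.31, interval -1.35 to 0.72). Cth, the next enzyme of that route and named after its values were seen, had 2.12 and 2.08 CPM in irradiated KO and 1.48 and 1.22 CPM in irradiated WT, against 6.65 and 5.98 CPM in non-irradiated KO and 6.05 and 5.19 CPM in non-irradiated WT. Hsd17b1, which reduces estrone to estradiol, had 3.38 and 2.19 CPM in irradiated KO and 2.80 and 2.50 CPM in irradiated WT, also with overlap (log2 0.08, interval -0.90 to 1.07).

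Gm567, a long non-coding RNA of chromosome 3 (137289639 to 137300708, plus strand) with no role given here, had 6.43 and 5.02 CPM in irradiated KO and 5.46 and 3.72 CPM in irradiated WT. Without irradiation it had 1 and 0 reads in KO and 2 and 0 in WT, the fewest of the 14. The irradiated lines overlapped (log2 0.34, interval -0.74 to 1.41). In the fit of all 8 libraries without the block, 10 genes were not called between the lines. They summed to 37.0 and 36.8 CPM in irradiated KO and 48.3 and 43.9 CPM in irradiated WT. Without irradiation they summed to 2.73 and 2.31 CPM in KO and 1.84 and 2.23 CPM in WT.

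Per kb of exon the order of levels differed between the lines. In irradiated KO Gm12250 was highest at 104 ± 4.22 CPM per kb (SD, n = 2), followed by Phf11a at 23.7 ± 1.26, Gm567 at 12.2 ± 2.13, Cd74 at 4.17 ± 0.318 and Spib at 2.83 ± 0.0112. None of these overlapped its neighbour in that order. In irradiated WT Spib was highest at 19.4 ± 0.0619 CPM per kb, followed by Gm567 at 9.78 ± 2.63, Cd74 at 7.998 ± 1.80, Gm12250 at 4.62 ± 3.63 and Phf11a at 3.35 ± 1.04. In WT the libraries of Gm567 and Cd74, of Cd74 and Gm12250, and of Gm12250 and Phf11a overlapped. The per kb value of Gm12250 rests on the short GENCODE model. Cbs was lowest in KO, at 0.402 ± 0.0336, and Camsap3 in WT, at 0.340 ± 0.00293.

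Did the size of the irradiation effect itself differ between the lines? In the interaction (the irradiation change in KO minus that in WT) 0 of the 14 genes passed the edgeR test, where 1.94 percent of all tested genes did, 1.37 percent as higher and 0.57 percent as lower. At an unadjusted p under 0.05 it was 1 gene, Phf11a, and DESeq2 called 0. With the replicate block Phf11a passed (edgeR adjusted p = 0.0223), where 1216 of all tested genes were called as higher and 1276 as lower. Phf11a had 3.05 ± 0.71 on the log2 scale (edgeR adjusted p = 0.0963), Gm12250 had 3.97 ± 3.21 (0.725), Spib had -1.47 ± 0.74 (0.66) and Cd74 had -0.51 ± 0.56 (0.909). Non-irradiated levels of at most 9 reads leave these values imprecise, and the called differences above are between irradiated lines and not between their changes.

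Spib and Cd74 are best known from immune cells, and Cd36 from macrophages, adipocytes and endothelium. Markers of immune cells and endothelium were therefore read beside them, but no adipocyte markers were. In bulk RNA fewer cells of a type and less RNA per cell cannot be told apart. Of the B cell list 18 of 20 genes were in the table, and the B cell genes Cd79b, Ms4a1, Blnk and Blk had at most 2 reads in every library. Others were expressed: 4 (Spib, Ebf1, Cr2 and Bank1) had at least 2 CPM in all irradiated libraries, and 1 had in all non-irradiated ones. Cr2 had 3.38 and 3.29 CPM in irradiated KO and 2.95 and 3.14 CPM in irradiated WT. Bank1 had 3.85 and 4.04 CPM in irradiated KO and 2.58 and 3.60 CPM in irradiated WT. The list without Spib summed to 104 to 111 CPM in irradiated KO and 95.1 to 96.7 CPM in irradiated WT, against at most 54.1 CPM in non-irradiated KO and 64.1 CPM in non-irradiated WT, most of it from the transcription factor gene Ebf1. Of 9 tested genes on the list, Spib included, edgeR called 2 as higher and 2 as lower in irradiated KO. Of all tested genes 13.3 percent were called as higher and 11.4 percent as lower. Pax5, the transcription factor that fixes B cell identity, missed the rule by 1 library and was the opposite of Spib: it had 20.8 and 21.8 CPM in irradiated KO and 2.14 and 1.97 CPM in irradiated WT (log2 3.38 ± 0.23, edgeR adjusted p = 0.000151). Cd79a was also higher in KO (3.43 ± 0.96, edgeR adjusted p = 0.0353) and Pou2f2 was lower (-2.53 ± 0.63, edgeR adjusted p = 0.0225).

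**Figure D4:**
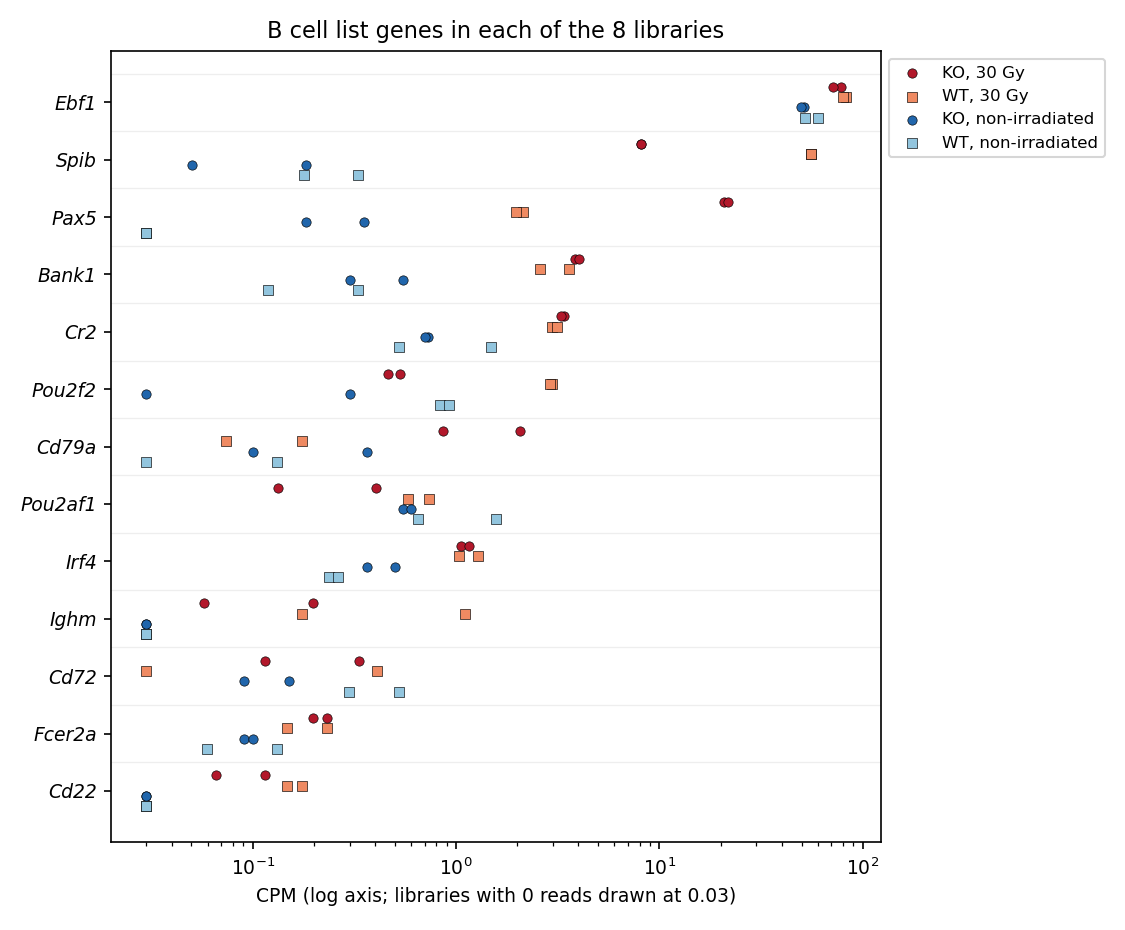
CPM of the B cell list genes with more than 2 reads in at least 1 library (rows, ordered by their highest value) on a log axis, 1 point per library, with libraries of 0 reads drawn at 0.03. Spib is highest in irradiated WT and Pax5 in irradiated KO, and Ebf1 is high in all 8 libraries.

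The M cell list holds Spib and the dendritic cell list Cd74. Of the M cell list all 9 genes were in the table. At least 2 CPM was reached by 5 in all irradiated libraries and by 4 in all non-irradiated ones. Only 1, Gp2, the defining surface receptor, had at most 2 reads in every library. Of 7 tested genes, Spib included, 1 (Clu) was called as higher in irradiated KO and 3 (Spib, Tnfaip2 and Anxa5) as lower. Of all tested genes 13.3 percent were called as higher and 11.4 percent as lower. Sox8 was not called, at 2.52 and 3.98 CPM in irradiated KO and 1.55 and 1.80 CPM in irradiated WT (log2 0.97 ± 0.39, edgeR adjusted p = 0.113). Tnfaip2 had 86.4 and 90.7 CPM in irradiated KO and 194 and 209 CPM in irradiated WT (log2 -1.17 ± 0.07, edgeR adjusted p = 4.51e-05). With Spib included the list summed to 833 to 871 CPM in irradiated KO and 1108 to 1149 CPM in irradiated WT. Without irradiation it summed to 624 to 670 CPM in KO and 792 to 833 CPM in WT. Most of it came from Anxa5. Of the dendritic cell list 11 of 14 were in the table, and Flt3 and Itgax had at most 4 and 2 reads. Other genes of the list were expressed. Xcr1 had 3.69 and 2.90 CPM in irradiated WT, at most 1.86 CPM in irradiated KO and at most 0.474 CPM without irradiation. It was not called between the irradiated lines (log2 -0.96 ± 0.56, edgeR adjusted p = 0.273). Zbtb46 had 15.9 and 15.2 CPM in irradiated KO and 17.8 and 21.1 CPM in irradiated WT. Among 5 tested genes of the list, Cd74 included, 0 were called as higher and 2 (Cd74 and Fscn1) as lower in irradiated KO. Over all tested genes the shares were 13.3 and 11.4 percent. Fscn1 had a log2 change of -0.84 ± 0.08 (edgeR adjusted p = 0.000286). Without Cd74 the dendritic cell list summed to 199 to 206 CPM in irradiated KO and 341 to 371 CPM in irradiated WT. Without Cd74 and without irradiation the list summed to 266 to 274 CPM in KO and 363 to 375 CPM in WT. Most of it came from Fscn1.

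Macrophage and monocyte markers summed to 83.6 to 94.7 CPM in irradiated KO and 48.9 to 49.9 CPM in irradiated WT, against 18.8 to 20.6 CPM in non-irradiated KO and 9.79 to 11.4 CPM in non-irradiated WT. Of 27 genes 26 were in the table and 8 had at most 2 reads in every library, among them Adgre1, C1qa, C1qb and Tyrobp. The sums came mostly from Cd68 and Cd14. Of 7 tested genes 3 (Cd14, Cd68 and Mpeg1) were called as higher in irradiated KO and 0 as lower, against 13.3 and 11.4 percent of all tested genes. Mpeg1 had 9.15 and 8.31 CPM in irradiated KO and 1.18 and 0.407 CPM in irradiated WT (log2 3.50 ± 0.64, edgeR adjusted p = 0.00689). Its highest value without irradiation was 0.251 CPM. The leukocyte gene Ptprc had 6 and 7 reads in irradiated KO, 20 and 20 in irradiated WT and, without irradiation, 0 and 0 in KO and 0 and 2 in WT. The pan-leukocyte list, with 18 of 18 genes in the table and 5 at no more than 2 reads in every library, summed to 48.2 to 55.4 CPM in irradiated KO and 46.3 to 54.8 CPM in irradiated WT, against 52.8 to 56.2 CPM and 51.1 to 54.3 CPM in non-irradiated KO and WT. The endothelium list summed to 21.8 to 25.7 CPM in irradiated KO and 30.0 to 34.4 CPM in irradiated WT. Without irradiation it summed to 11.5 to 11.8 CPM in KO and 11.3 to 13.1 CPM in WT. Of its 8 tested genes 2 (Cdh5 and Tek) were called as higher in irradiated KO and 2 (Flt1 and Vwf) as lower, against 13.3 and 11.4 percent of all tested genes. No gene of the T and NK cell, granulocyte, erythroid, endothelial, fibroblast, muscle, neuron, glia, intestinal, stratified epithelial, germ cell or hepatocyte lists was among the 14. The part of other cell types in the 14 genes was not tested. Cd36 also stood on a list of innate immune sensors and adaptors. Of the 26 tested genes of that list 16 were called as higher and 3 as lower in irradiated KO, with a median log2 change of 0.89. Of all tested genes 13.3 percent were called as higher and 11.4 percent as lower, with a median of -0.01. No gene of the 5 other function lists was among the 14, including that of cell cycle exit, p53 and senescence. That list holds 40 genes, 37 of them in the table, and its absence from the 14 covers those genes only. Of its 32 tested genes 8 were called as higher and 6 as lower in irradiated KO, against 13.3 and 11.4 percent of all tested genes.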

How the data were processed

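RNA of 8 MC38 libraries was sequenced. The authors deposited counts of reads for each Ensembl gene, unnormalized and whole. The submitters' processing notes name HISAT2, HISAT, HTSeq and DESeq2 without role or version, and the build mm10. The annotation release, strand setting, handling of multi-mapping reads and filters were not given in the sources used here. Symbols, positions and exon lengths came from GENCODE M21 (mm10), 1-based, and promoters from RefSeq (GRCm38.p6). Replicates differed by more than sampling noise in every group.

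CPM is the count divided by the library's total, times 1000000. Counts were tested in R 4.3.3 with edgeR 4.0.16: filterByExpr (minimum count 10, minimum total 15) left 14923 genes, TMM factors were 0.975 to 1.024, and 1 fit with 1 coefficient per group (4 residual degrees of freedom) gave two-sided quasi-likelihood F tests, BH-adjusted over all tested genes. Standard errors (SE) derive from the F statistic. Replicate numbers, whose meaning the labels do not state, were treated as pairing the samples for the block: differences between replicates 1 and 2 correlated at 0.56 to 0.61 over 14923 genes in all 6 pairs of groups. The code was tested on simulated data. DESeq2 1.42.0, RLE scaling, no filter, a replicate block, a fit of irradiated libraries alone and leaving out each library were alternatives. Folds with exact (Clopper-Pearson) intervals use reads pooled over 2 libraries, and intervals and floors cover counting error only.

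The 14 genes and the 24 lists (17 lineage, 7 function) were chosen with earlier results of these data known. All 14 genes are named, with the genes nearest to each limit.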

Additional observations from a re-analysis of the deposited data

How the results depend on the processing

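Gm12250, Phf11a and Spib were called in the same direction in all 13 alternative fits of KO against WT after irradiation (log2 change without 1 library 3.85 to 5.67, 2.53 to 3.19 and -2.78 to -2.75). Cd74 was called in 9 of 13. The number of the 14 genes called lower was 2, and it was 1 with DESeq2, 4 with the replicate block (Cd74, Spib, Crispld2 and Gipc2) and 1 to 3 when 1 library was left out. The number called higher was 2 throughout. The block changed no other call among the 14 than those of Crispld2, Gipc2 and, in the interaction, Phf11a. It raised calls over all genes to 3761 higher and 3755 lower, against 1980 and 1698, and leaving out any 1 of the 4 irradiated libraries moved them to between 1100 and 1219 higher and 792 and 960 lower. Hsd17b1 ranged from -0.25 to 0.38 when 1 library was left out and was never called. In the interaction Phf11a became 1 called gene with no filter (adjusted p = 0.0481) and with the replicate block (0.0223), and its adjusted p ran from 0.0223 to 0.567 over the alternatives.

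The number of genes chosen depends on the limits. It was 14, and 13 with TMM-scaled CPM (without Slco1a5), 1 at under 0.25 and at least 4 CPM (Cd74), 51 at under 1 and at least 2 CPM, 85 within KO alone, 88 within WT alone, and 16 to 23 when 1 library was left out, each time with the 14 included. It was 22 without irradiated WT replicate 2 and 23 without non-irradiated KO replicate 2. Depth limits the genes near 2 CPM, with as few as 28 reads in an irradiated library, and every value without irradiation, at most 9 reads.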
